A study of Mus musculus with 7 samples.

Results

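The genes described here encode the adult globins, the chaperone of alpha globin, enzymes of haem synthesis and the carbonic anhydrases of red cells. They were chosen by name: Hba-a1, Hba-a2, Hbb-bs, Hbb-bt, Alas2, Ahsp, Car1, Car2 and Fech, 9 genes in all. Of these, 8 were matched by symbol among 56854 gene identifiers listed for every library, and Ahsp was not analysed here. Of the 8, 7 had counts and were tested, and Alas2 was listed at 0 in every library. RNA came from whole shoulder joints of 7 mice, 1 library per mouse, 2 weeks after surgery in which the left supraspinatus tendon was repaired, in mice of both genotypes. The groups were wild type (n = 3) and Tnc-/- (n = 4), mice that lack tenascin C, a matrix glycoprotein of healing tendon; the labels give neither the strain or age of the mice nor how Tnc was deleted. A whole joint holds bone with its marrow as well as blood, muscle and tendon, so red cell precursors and circulating reticulocytes can both contribute RNA. In such bulk RNA, fewer cells of a type and less RNA per cell cannot be told apart.

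Haemoglobin is a tetramer of a pair of alpha and a pair of beta globin chains, each holding a haem group with its iron atom. In adult mice the alpha chains come from Hba-a1 and Hba-a2 and the beta chains from Hbb-bs and Hbb-bt, and erythroblasts fill with these RNAs while they mature in the marrow. Haem is built by a chain of enzymes that begins in the mitochondrion with aminolevulinate synthase, passes through the cytosol and ends in the mitochondrion with ferrochelatase, the product of Fech, which inserts the iron.

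The libraries held 13.5 to 28.2 M gene counts (M, 1e+06), and the wild-type libraries differed among themselves. Counts on olfactory and vomeronasal receptor genes, which a joint is not known to use and which serve here as a measure of background, summed to 86.2, 1455 and 1042 CPM (counts scaled to the same library total) in the 3 wild-type libraries, against 32.9 to 41.3 CPM in the Tnc-/- libraries. Genes over 300 kb long in GENCODE M21 stood above their Tnc-/- mean by a median of 0.40, 3.09 and 2.68 on the log2 scale in wild-type libraries 1 to 3. Those of up to 10 kb stood at -0.079, -0.35 and -0.39. The main counts and the tested genes are therefore also given with wild-type library 1 as the 1 wild-type library. The files of the 2 genotypes list different identifier sets and so come from different counting runs; genotype and run cannot be told apart in any comparison. Tnc itself, the targeted gene, was at 437, 292 and 327 CPM in wild type and at 33.4, 38.9, 39.9 and 55.0 CPM in Tnc-/-, so every library followed its label.

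The globin genes lie in pairs of near-identical copies, and their sequences set what the counts can resolve. In GENCODE M21 transcripts the coding sequences of Hba-a1 and Hba-a2, 429 bases each, differed at 1 base, C381T, and those of Hbb-bs and Hbb-bt, 444 bases each, at 1 base, C417T; positions count from the A of the start codon, with the first-named gene's base first. Neither substitution changes an amino acid. Of all 100-base windows of the Hba-a1 transcript, 56.5% occur unchanged in that of Hba-a2, and of those of Hbb-bs 62.6% occur in that of Hbb-bt. How the counting treated reads that fit both copies is not given in the sources used here, so the split between copies is uncertain. The sum over a pair does not depend on that split, but it would lack any shared reads that the counting left out.

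The promoters are shown because the copies of a pair are compared with each other below, and the upstream sequences of the alpha pair are more alike than those of the beta pair. Each line gives the 120 bases before the RefSeq start of transcription in GRCm38.p6, 5′ to 3′ on the gene's strand, with every match on either strand to 4 short strings in capitals. These are CCAAT, the letters of the box of that name (ATTGG on the other strand), then CACCC, found in sites of KLF1, then GATA, found in sites of GATA1, and finally TATAA, the letters of the TATA box.
Hba-a1: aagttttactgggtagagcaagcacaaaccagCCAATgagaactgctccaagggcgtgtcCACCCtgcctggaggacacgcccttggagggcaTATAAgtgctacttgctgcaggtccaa
Hbb-bs: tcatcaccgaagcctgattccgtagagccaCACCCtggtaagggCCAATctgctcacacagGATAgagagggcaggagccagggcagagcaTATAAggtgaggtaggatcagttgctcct
Hbb-bt: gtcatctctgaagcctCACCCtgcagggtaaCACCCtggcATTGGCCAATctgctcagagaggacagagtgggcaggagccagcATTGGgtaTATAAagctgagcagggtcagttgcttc
The Hba-a1 stretch is chr11:32283552-32283671 on the plus strand, the Hbb-bs stretch chr7:103827929-103828048 and the Hbb-bt stretch chr7:103813924-103814043, both on the minus strand. No hits of these 4 strings overlapped each other in these 3 stretches. Hba-a2 matched Hba-a1 at 247 of 247 bases when its start was shifted by 3 bases, whereas Hbb-bs and Hbb-bt agreed at 51.0% of 249 bases, compared without gaps at a shift of 1 base. The CCAAT, KLF1-type and TATA box strings were all present in the 250 bases before the start of each of the 4 globin genes. They occur together in 3.28% of the 32851 RefSeq promoters of that length and singly in 33.8, 52.0 and 22.8%, while the GATA string occurs in 53.6%. A match of letters is a description and not a site of binding.

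The beta globins rose in Tnc-/-. Hbb-bs had levels of 3896, 2178 and 2651 CPM in wild type (libraries 1 to 3, in that order here and below) and of 13547, 7533, 7892 and 6656 CPM in Tnc-/- (libraries 1 to 4). Every Tnc-/- library lay above every wild-type library, and Tnc-/- library 1 stood highest. The means were 2908 ± 887 CPM (SD, n = 3) and 8907 ± 3136 CPM (SD, n = 4). The log2 fold change was 1.61 with an SE of 0.33 and an adjusted p of 0.0103 (edgeR quasi-likelihood test, Benjamini-Hochberg). Hbb-bt was at 456, 284 and 344 CPM in wild type and at 1217, 625, 722 and 699.7 CPM in Tnc-/-. Its groups did not overlap either, and its log2 fold change was 1.17 (SE 0.28; edgeR, adjusted p = 0.0163).

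Of the alpha globins, Hba-a1 rose and Hba-a2 did not pass the test. Hba-a1 was at 4028, 1996 and 2548 CPM in wild type and at 9651, 5907, 5640.2 and 5029 CPM in Tnc-/-. All Tnc-/- values were above all wild-type values, and the log2 fold change was 1.20 (SE 0.33; edgeR, adjusted p = 0.0275). Hba-a2 was at 516, 246 and 118 CPM in wild type and at 662, 487, 582 and 439 CPM in Tnc-/-, and its log2 fold change was 0.89 (SE 0.43; edgeR, adjusted p = 0.149). Its groups overlapped, since wild-type library 1 was above Tnc-/- libraries 2 and 4. Per kilobase of exon in GENCODE M21 the mean wild-type levels were 3787 CPM for Hbb-bs, 3519 for Hba-a1, 514 for Hbb-bt and 439.9 for Hba-a2. The order in Tnc-/- was the same, at 11598, 8075, 1161 and 813 CPM per kilobase.

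**Figure D1:**
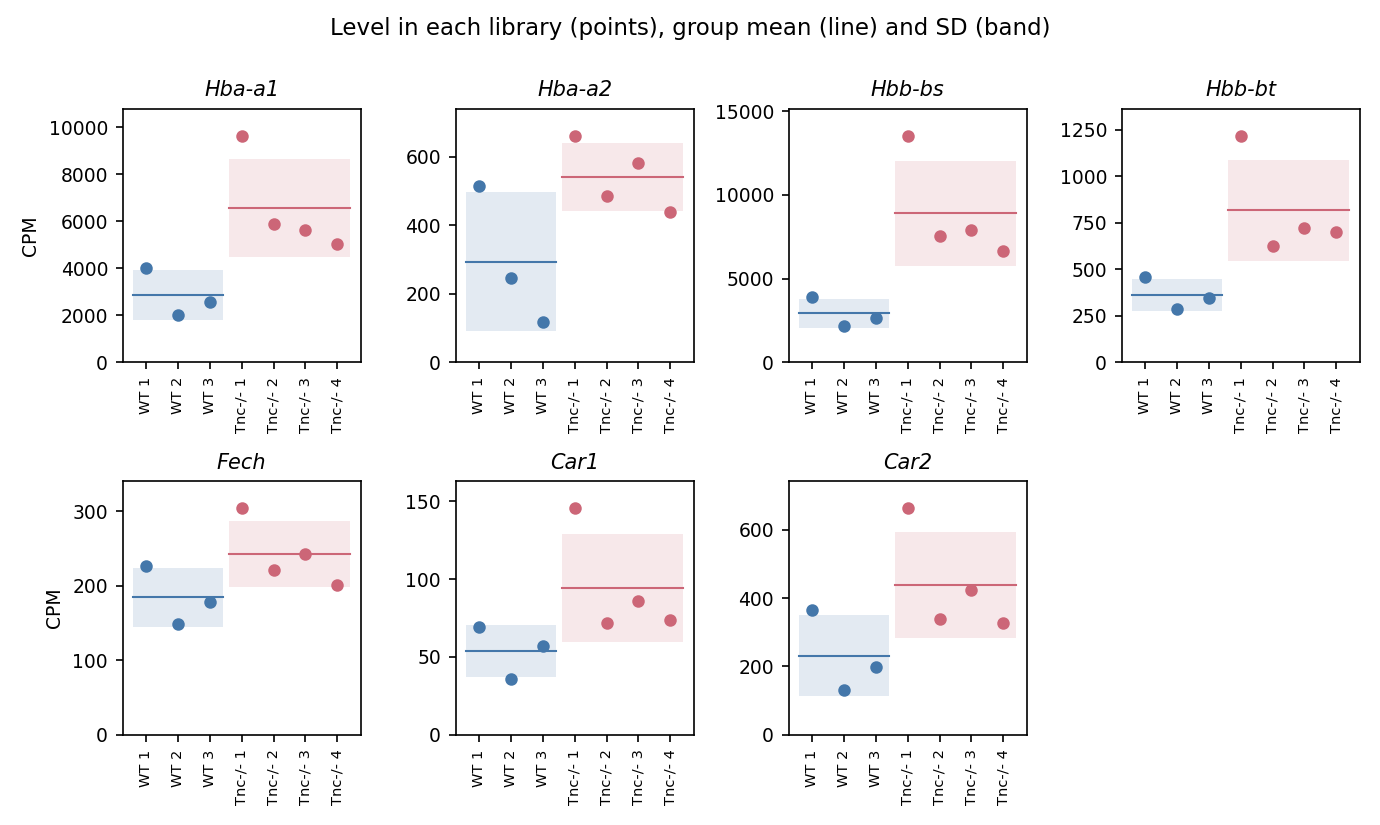
Level of the 7 tested genes in CPM (vertical axes, linear, starting at 0) in each library (horizontal axes; wild type blue, Tnc-/- red), with the group mean as a line and the SD as a band. Tnc-/- library 1 is the highest point in every panel, and the groups are separate for Hba-a1, Hbb-bs, Hbb-bt and Car1.

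Counted together, 3 of the 7 tested genes were called higher in Tnc-/- and none lower, where 10.3% of all 17791 tested genes were called higher and 29.0% in either direction (edgeR). In 4 of the 7 every Tnc-/- library lay above every wild-type library, which held for 17.7% of all tested genes. All 7 had a log2 fold change above 0, with a median of 0.92 against a median of -9.0e-04 over all tested genes. That background median varied with gene length: it was 0.29 for genes of up to 10 kb, where the 4 globin genes belong, 0.15 for 10 to 30 kb, where Car2 belongs, and -0.15 for 30 to 100 kb, where Car1 and Fech belong. Of the genes of up to 10 kb, 11.96% were called higher. The background level of wild-type libraries 2 and 3 moved with these results, and its part in them was not tested beyond the following fits. With wild-type library 1 against the 4 Tnc-/- libraries, where the lone library is assumed to vary like the others, none of the 7 was called (0 genes; at an unadjusted p of 0.0172 Hbb-bs and of 0.0333 Hbb-bt were the smallest). The log2 fold change was then 1.19 (SE 0.43) for Hbb-bs, 0.83 (SE 0.34) for Hbb-bt, 0.70 (SE 0.39) for Hba-a1 and 0.066 (SE 0.24) for Hba-a2, with edgeR adjusted p of 0.121, 0.165, 0.290 and 0.895. The Tnc-/- mean was 2.29 times wild-type library 1 for Hbb-bs, 1.79 times for Hbb-bt and 1.63 times for Hba-a1, while all 4 Tnc-/- libraries were above library 1 for each of these 3.

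**Figure D2:**
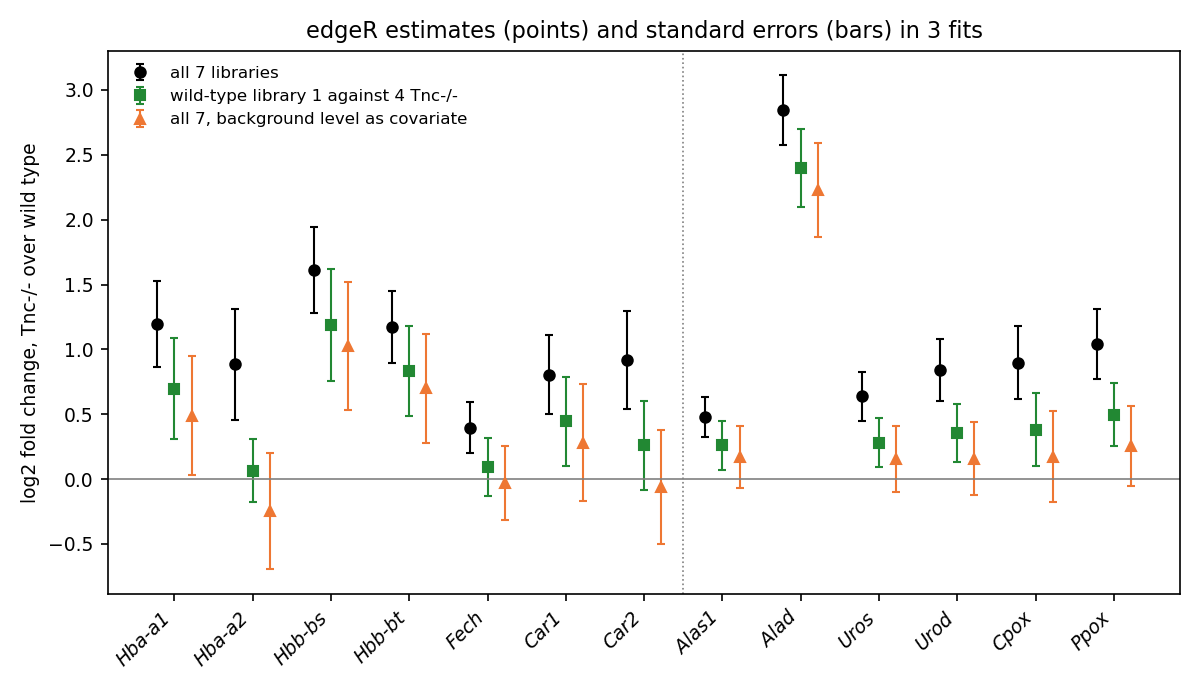
log2 fold change of Tnc-/- over wild type (vertical axis) for the 7 tested genes and, right of the dotted line, 6 other haem synthesis enzymes, with standard errors as bars. Black circles use all 7 libraries, green squares wild-type library 1 as the lone wild-type library and orange triangles the background level as a covariate; Hbb-bs is at 1.61, 1.19 and 1.03, and Alad is the highest in all 3 fits.

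The 4 adult globins together made up 0.896, 0.526 and 0.641% of gene counts in wild type and 2.41, 1.34, 1.377 and 1.17% in Tnc-/-. The groups did not overlap, and the lowest Tnc-/- library was above wild-type library 1. The 95% Wilson interval was 0.892 to 0.900% in wild-type library 1 and 1.17 to 1.18% in Tnc-/- library 4; such intervals cover counting error only. Leaving these 4 genes out of the library totals changed none of the calls of the 7 genes.

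The balance of alpha to beta counts, in which scaling cancels but the treatment of shared reads need not, also separated the groups. The counts of the genotypes come from separate runs, and the part of that in the balance was not tested. The summed counts of Hba-a1 and Hba-a2 were 1.04, 0.911 and 0.890 times those of Hbb-bs and Hbb-bt in wild-type libraries 1 to 3. They were 0.699, 0.784, 0.722 and 0.743 times in Tnc-/-, so every Tnc-/- library was below every wild-type library, an order that 17.4% of all tested genes showed in CPM. The mean ratio was 0.948 ± 0.0837 (SD, n = 3) in wild type and 0.737 ± 0.0362 (SD, n = 4) in Tnc-/-, a difference of -0.36 on the log2 scale. Without wild-type libraries 2 and 3 it was -0.50.

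The share of Hbb-bt in the beta counts was 10.5, 11.6 and 11.5% in wild type and 8.24, 7.66, 8.38 and 9.51% in Tnc-/-. These groups were separate as well, with means of 11.2 ± 0.601% (SD, n = 3) and 8.45 ± 0.775% (SD, n = 4). The difference was -2.72 percentage points, and -2.03 without wild-type libraries 2 and 3. The share of Hba-a2 in the alpha counts was 11.4, 11.0 and 4.41% in wild type and 6.42, 7.61, 9.35 and 8.03% in Tnc-/-, and here wild-type library 3 was the lowest of all and the groups overlapped. Both shares depend on reads that tell near-identical copies apart, in counts made in separate runs, and the part of that in the differences was not tested.

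**Figure D3:**
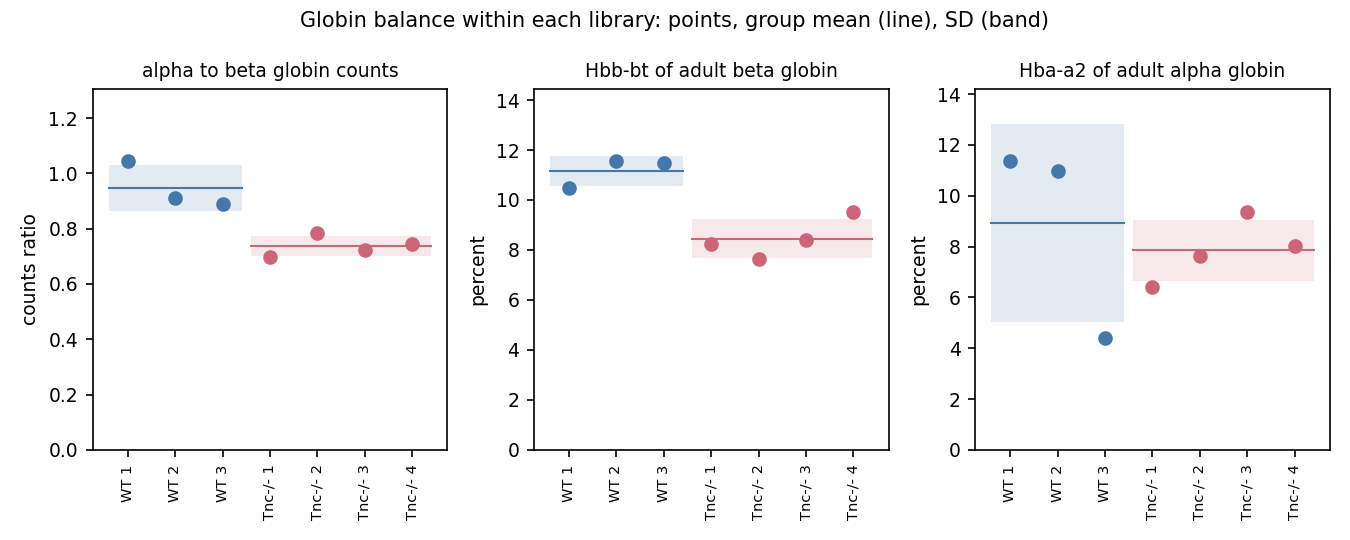
Left, ratio of alpha to beta globin counts; middle and right, percent of beta counts on Hbb-bt and of alpha counts on Hba-a2, per library (wild type blue, Tnc-/- red), with the group mean as a line and the SD as a band. The alpha to beta ratio and the Hbb-bt share are lower in all 4 Tnc-/- libraries, whereas the Hba-a2 share overlaps.

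The other globins on a fixed list gave few counts. Hbb-y, Hbb-bh1 and Hba-x, globins of the embryo, had 0 counts in every wild-type library and at most 9 in a Tnc-/- library, and Hbb-bh2 had 1 count in all. Of 3 list genes with enough counts to test, 1 was called higher, against 10.3% of all tested genes. Hbq1b, a theta globin, rose from 2.56 ± 0.795 CPM (SD, n = 3) to 7.97 ± 3.00 CPM (SD, n = 4), by 1.64 on the log2 scale (SE 0.45; edgeR, adjusted p = 0.0272). Hbq1b was not called with wild-type library 1 as the lone wild-type library or with the background covariate. Mb, the oxygen-binding myoglobin of muscle, was at 957 ± 339 and 1122 ± 248 CPM (log2 fold change 0.23, SE 0.28; edgeR, adjusted p = 0.563). Cygb, cytoglobin, had a log2 fold change of 0.29 (SE of 0.23; edgeR, adjusted p = 0.365).

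Alas2 encodes the aminolevulinate synthase of erythroid cells, the entry to their haem synthesis. It had 0 counts in all 7 libraries, which allows at most 0.111 to 0.199 CPM per library (3 counts each). This zero stood beside 30039 to 260936 counts of Hba-a1 and beside Klf1, an erythroid transcription factor, at 19.8 to 122 CPM. In GENCODE M21 15.5% of the exon bases of Alas2 overlap other genes, Apex2 among them, and Apex2 had 158 to 377 counts per library. The annotation used for counting is not given, so the zero is not read as absence of Alas2 RNA, and its source was not tested.

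Fech, the last enzyme, was at 226, 148 and 178 CPM in wild type and at 304, 221, 243 and 201 CPM in Tnc-/-. Wild-type library 1 lay within the Tnc-/- range, and the log2 fold change of 0.40 (SE 0.20) was not past the threshold (edgeR, adjusted p = 0.162). It was 0.094 with wild-type library 1 as the lone wild-type library (edgeR, adjusted p = 0.826). Globin counts per Fech count were 39.3, 31.8 and 31.8 in wild type and 82.6, 65.8, 61.1 and 63.7 in Tnc-/-. In this ratio, which no scaling touches, the groups were far apart. Wild-type library 1 was nearer to the other wild-type libraries than to any Tnc-/- library. The globin genes and Fech lie in different length classes, whose tested genes had median log2 fold changes of 0.29 and -0.15. The part of gene length and of the separate counting runs in this ratio was not tested. Globin counts per Car2 count were 24.4, 35.7 and 28.4 in wild type and 37.9, 42.8, 34.98 and 39.2 in Tnc-/-, and there the groups overlapped, since wild-type library 2 was above Tnc-/- library 3.

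Of the 8 haem synthesis enzymes followed here, which include Alas2 and Fech, 7 were tested and 6 rose (edgeR, against 10.3% of all tested genes), with a median log2 fold change of 0.84 over the 7. Alad, aminolevulinate dehydratase, was at 58.6, 34.8 and 36.1 CPM in wild type and at 421, 273, 285 and 261 CPM in Tnc-/-. The lowest Tnc-/- library thus stood far above the highest wild-type library, and the log2 fold change was 2.84 (SE 0.27; edgeR, adjusted p = 0.00226). Alad lies on chromosome 4 as Tnc does, with 1439.9 kb between them in GENCODE M21.

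The other enzymes called had log2 fold changes of 0.48 to 1.04. Uros, which closes the porphyrin ring, rose from 31.4 ± 7.75 to 48.9 ± 6.52 CPM (log2 fold change 0.64, SE 0.19; edgeR, adjusted p = 0.0355). With the same quantities in the same order, Urod, the next enzyme, a decarboxylase, rose from 69.2 ± 23.7 to 124 ± 24.7 CPM (0.84 with SE 0.24 and 0.0306). Cpox, coproporphyrinogen oxidase, rose from 58.2 ± 21.6 to 108 ± 30.6 CPM (0.90, SE 0.28; 0.043) and Ppox, protoporphyrinogen oxidase, from 44.7 ± 17.7 to 92.0 ± 21.1 CPM (1.04, SE 0.27; 0.0226). Alas1, the aminolevulinate synthase of all tissues, rose from 92.7 ± 14.2 to 129 ± 16.2 CPM (0.48, SE 0.16; 0.0479). All SDs here are over 3 wild-type and 4 Tnc-/- libraries. In each of these 6 enzymes the groups did not overlap, Alad included, an order that 17.7% of all tested genes showed. The separation was narrow for Cpox, with 83.1 CPM in wild-type library 1 and 83.4 CPM in Tnc-/- library 4, and for Alas1, with 107 and 109 CPM in the same libraries.

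With wild-type library 1 as the 1 wild-type library, Alad was the 1 enzyme of the list still called, with a log2 fold change of 2.40 (SE of 0.30; edgeR, adjusted p = 0.00159). The other 5 that rose in the full comparison were then at 0.26 to 0.50. Leaving out wild-type library 2 or 3 alone also left 1 call, Alad, as did leaving out Tnc-/- library 1 or 3, while 2 enzymes were called without Tnc-/- library 2 and 2 without library 4. The fit without wild-type library 1 called all 7 tested enzymes, in a fit where 24.3% of all 21989 genes tested were called higher and 64.2% in either direction. Alad was past the threshold in each of the 18 alternatives, with adjusted p up to 0.0474.

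**Figure D4:**
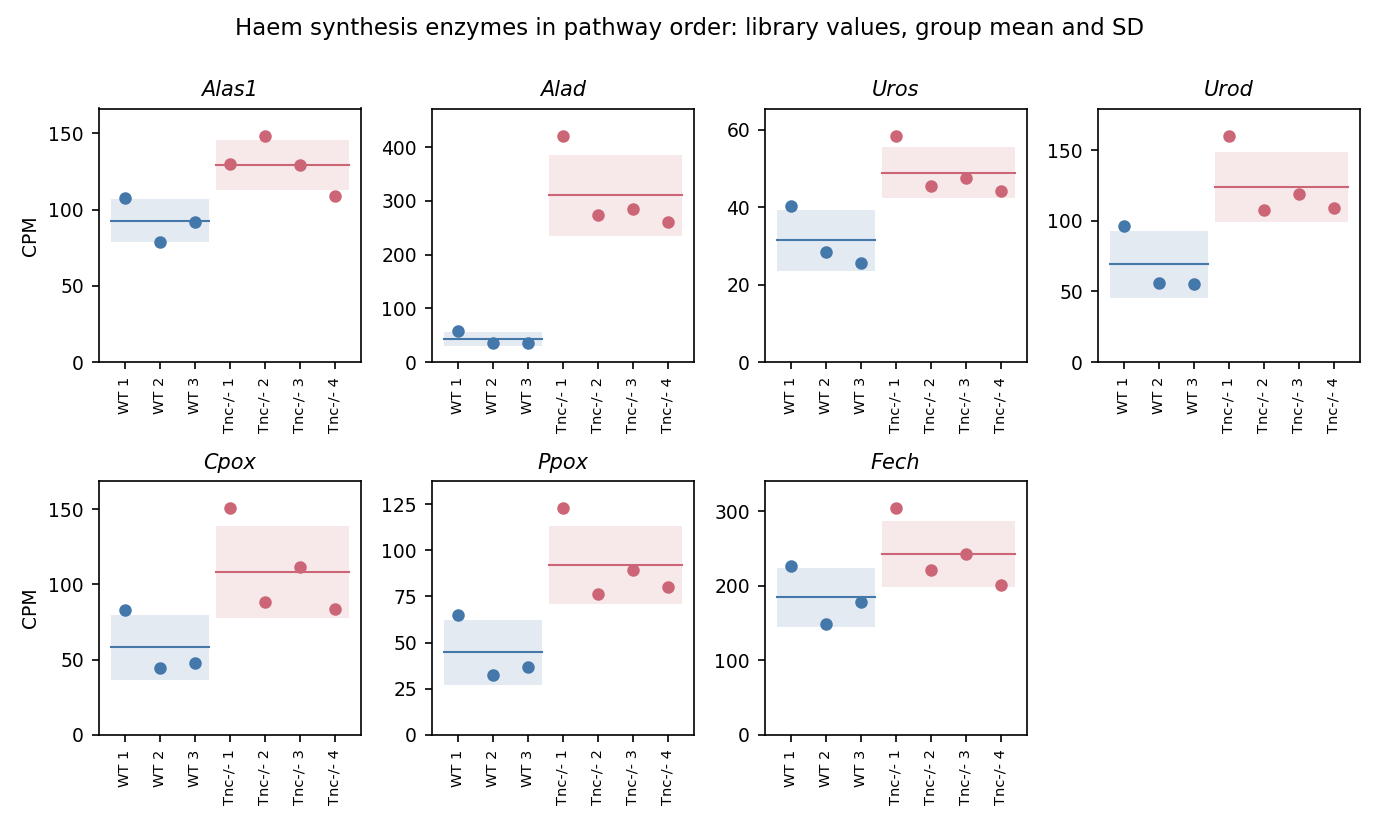
Level in CPM (vertical axes, linear, starting at 0) of 7 tested haem synthesis enzymes in pathway order, per library (wild type blue, Tnc-/- red), with the group mean as a line and the SD as a band. The groups are separate in every panel but that of Fech, and wild-type library 1 is the highest wild-type point in each.

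The carbonic anhydrases of red cells, which hydrate carbon dioxide to bicarbonate, were not called. Car1 was at 69.0, 35.6 and 57.1 CPM in wild type and at 145, 71.8, 85.6 and 74.0 CPM in Tnc-/-, and its log2 fold change was 0.81 (SE 0.30; edgeR, adjusted p = 0.0772). All its Tnc-/- values were above all wild-type values, the nearest being 71.8 against 69.0 CPM. Car2 was at 364, 132 and 199.5 CPM in wild type and at 662, 340.1, 424 and 327 CPM in Tnc-/-, and its log2 fold change was 0.92 (SE 0.38; edgeR, adjusted p = 0.0969). Wild-type library 1 was above Tnc-/- libraries 2 and 4. Both genes passed the threshold with DESeq2 (adjusted p = 0.0451 and 0.035), without wild-type library 1 (edgeR, adjusted p = 0.0036 and 4.7e-04) and with the replicate number as a block, a number that pairs no mice (edgeR, adjusted p = 0.025 and 0.0221). With wild-type library 1 as the lone wild-type library the log2 fold changes were 0.45 for Car1 and 0.26 for Car2 (edgeR, adjusted p = 0.454 and 0.674), and with the background level as a covariate 0.28 and -0.062 (0.794 and 0.959).

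Car2 is also the carbonic anhydrase of osteoclasts, the cells that resorb bone. Of the 12 osteoclast markers on a fixed list, 11 were tested, 2 were called higher and 2 lower, against 10.3 and 18.7% of all tested genes. Their median log2 fold change was -0.25. With limma voom 0 were called, against 5.64% of all tested genes. With the background covariate edgeR called 0 higher and 1 lower, as it did without wild-type library 2 or 3 or any single Tnc-/- library. Of all genes 1.17% were called lower with the covariate and 9.04 to 11.8% in the fits without 1 of those libraries. The summed level of the osteoclast markers was 1327 to 1765 CPM in wild type and 1386 to 1708 CPM in Tnc-/-, with Acp5 listed at 0 in every library. Ctsk, their protease, was at 592 to 797 CPM in wild type and 516 to 760.3 CPM in Tnc-/-. The part of osteoclasts in the Car2 values was not tested. Counts of Car2 per count of Car1 were 5.28, 3.71 and 3.50 in wild type and 4.56, 4.74, 4.96 and 4.42 in Tnc-/-, so wild-type library 1 was the highest and the groups overlapped. Of 14 other carbonic anhydrases 13 were tested, and none was called higher with edgeR or DESeq2 over all 7 libraries. edgeR called 4 lower, where 18.7% of all tested genes were called lower, and limma voom called 0. Without wild-type library 1 edgeR called 1 higher and 5 lower (24.3 and 39.9% of all genes). It called 0 lower with the background covariate and 1 without wild-type library 2 or 3 (1.17, 10.5 and 9.04% of all genes). Among the 4 called lower over all 7 libraries, Car10 had 2.31, 123 and 68.3 CPM in the wild-type libraries, the same order as their background level. Car3, the abundant muscle form, was at 630 to 903 CPM over all libraries and was not called (log2 fold change 0.18, SE 0.18; edgeR, adjusted p = 0.472).

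Genes that feed haem synthesis were partly called. Of 15 genes for transport of haem precursors and iron and for iron-sulfur clusters, 14 were tested and 5 rose, against 10.3% of all tested genes, with a median log2 fold change of 0.47. Against wild-type library 1 alone the median was 0.21. With the background covariate it was 0.24, and edgeR called 0 of the 14. At an unadjusted p under 0.05 were then 0 of the 14, against 3277 of all 17791 tested genes. Tmem14c, a mitochondrial carrier needed for haem synthesis, rose from 79.9 ± 12.1 CPM (SD, n = 3) to 135 ± 17.5 CPM (SD, n = 4), by 0.76 on the log2 scale (SE 0.15; edgeR, adjusted p = 0.0101). Glrx5, which hands on iron-sulfur clusters, rose by 0.80 (SE 0.18; edgeR, adjusted p = 0.0147). Slc25a37, mitoferrin, was at 89.1 to 222 CPM in wild type and 240.2 to 426 CPM in Tnc-/- (0.92, SE 0.32; edgeR, adjusted p = 0.0628). None of the 12 tested genes of iron uptake, storage and control was called with edgeR or limma voom, and DESeq2 called 1. In the main test 3 had an unadjusted p under 0.05, as had 7533 of all 17791 tested genes. edgeR called 8 of the 12 higher without wild-type library 1, 1 with no filter on low counts and 1 with the replicate block. Of all genes tested 24.3, 7.24 and 4.37% were called higher in these fits. Tfr2, a transferrin receptor of erythroid and liver cells, had a log2 fold change of 0.79 and Trf, transferrin, of 0.48 (edgeR, adjusted p = 0.0612 and 0.0685). Fth1, the heavy chain of the iron store ferritin, was the most abundant of these, at 905 to 1322 CPM in wild type and 1246 to 1331 CPM in Tnc-/-.

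Of 10 genes of haem breakdown and clearance of free haemoglobin, 4 were called higher (Hmox1, Blvrb, Slc48a1 and Hp) and 2 lower (Hmox2 and Hpx), against 10.3 and 18.7% of all tested genes. The higher calls numbered 0 with the background covariate and without wild-type library 3 (edgeR). At an unadjusted p under 0.05 were then 2 and 5 genes in either direction, against 3277 of 17791 and 5816 of 18116 over all genes. The lower calls numbered 0 with limma voom and with the background covariate. They also numbered 0 when wild-type library 2 or 3 or any single Tnc-/- library was left out (edgeR). With wild-type library 1 as the lone wild-type library the median log2 fold change was 0.43, against 0.36 over all 7 libraries. Blvrb, a biliverdin reductase abundant in red cells, rose from 80.3 ± 23.4 CPM (SD, n = 3) to 169 ± 40.4 CPM (SD, n = 4), by 1.08 on the log2 scale (SE 0.24; edgeR, adjusted p = 0.0128). Hp, haptoglobin, which binds free haemoglobin, rose from 139 ± 36.1 to 250.2 ± 27.1 CPM (0.85, SE 0.19; edgeR, adjusted p = 0.0131). Hmox1, the inducible haem oxygenase, was at 53.9 to 109 CPM in wild type and 129 to 189 CPM in Tnc-/- (1.03, SE 0.25; edgeR, adjusted p = 0.0172). Both genes called lower had their highest levels in wild-type libraries 2 and 3. Hpx was at 0.322, 12.9 and 14.7 CPM in wild type and at 0.501 to 0.628 CPM in Tnc-/-, and Hmox2 at 1.07, 14.5 and 6.44 CPM and at 1.01 to 2.15 CPM. The part of the background level in these calls was not tested.

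Other genes of the red cell lineage were called in the same direction. On the list of red cell membrane and skeleton genes 8 of 16 rose and none fell, with a median log2 fold change of 0.93, where 10.3% of all tested genes were called higher. Ank1 and Sptb, which anchor and build the spectrin skeleton, were at log2 fold changes of 1.76 (SE 0.24) and 1.52 (SE 0.24), with edgeR adjusted p of 0.0067 and 0.0068. On the list of erythroid regulators 8 of 12 rose and none fell, with a median of 1.10; Zfpm1, the partner of GATA1, was at 1.84 (SE 0.31; edgeR, adjusted p = 0.00716). On the list of late erythroid maturation 3 of 14 rose, Tspan33, Trim10 and Bpgm, with a median of 0.51, a share nearer to the 10.3% of all tested genes. Globin counts exceeded the summed counts of the membrane list by factors of 4.05, 3.69 and 3.44 in wild type and 6.02, 5.36, 4.66 and 4.74 in Tnc-/-, and the groups were separate, unlike those of the ratio to Car2. With wild-type library 1 as the lone wild-type library, the medians of the membrane, regulator and maturation lists were 0.71, 0.78 and 0.27. With the background covariate edgeR called 0 on each, where 1.07% of all tested genes were called higher, at medians of 0.48, 0.62 and 0.12. At an unadjusted p under 0.05 were then 4 of 16, 2 of 12 and 1 of 14, against 3277 of all 17791 tested genes.

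The 8 genes most like the tested globin, haem and carbonic anhydrase genes were ranked by Pearson's r with their mean log2(CPM + 1) over the 7 libraries, as a description with no test. They were Hmgb2, Epor, Klf1, Cst7, Cep85, Ppox, Ezh2 and Bub1b, with r from 0.993 to 0.996, among 12326 ranked genes. Epor, the receptor of erythropoietin, was at 22.2, 7.24 and 9.60 CPM in wild type and at 64.8, 33.2, 37.2 and 31.0 CPM in Tnc-/-. Klf1, which activates the beta globin genes, was at 41.8, 19.8 and 25.4 CPM in wild type and at 122, 61.3, 69.0 and 60.2 CPM in Tnc-/-. These points share library and genotype. Among the 7 tested genes r was 0.667 to 0.989, and the lowest value was between Hba-a2 and Car1.

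Of the other cell marker lists, the granulocyte, megakaryocyte and skeletal muscle sums were separate between the groups, and the B cell, macrophage and osteoclast sums overlapped. Of 12 granulocyte markers 8 rose, against 10.3% of all tested genes, and their sum was 2992 to 6295 CPM in wild type and 6968 to 11853 CPM in Tnc-/-; S100a9 was at 790.4 to 1516 CPM and at 1864 to 3195 CPM. Of 10 megakaryocyte and platelet markers 9 were tested and 6 rose, also against 10.3%, with sums of 323 to 627 and 675 to 1124 CPM. Sums were 229.9 to 269 and 255 to 393 CPM for the 11 B cell markers matched, of which 1 of 8 tested rose, against 10.3%. Rag1, Rag2 and Ms4a1 were listed at 0. For 10 macrophage markers the sums were 665 to 1177 and 1010.4 to 1264 CPM, with 1 called lower, against 18.7% of all tested genes. The summed level of 12 skeletal muscle markers was 28364 to 38595 CPM in wild type and 40431 to 61359.7 CPM in Tnc-/-, with Myh4 and Ryr1 called higher. Without wild-type library 1, edgeR called 11 of the muscle, 6 of the B cell and 6 of the macrophage markers higher, in the fit that called 24.3% of all genes tested higher. With the background covariate edgeR called 0 granulocyte, 0 megakaryocyte and 0 muscle markers. At an unadjusted p under 0.05 were then 0, 0 and 1 of these, against 3277 of all 17791 tested genes. The median log2 fold change of the granulocyte markers was 1.14 in the full comparison, 0.53 against wild-type library 1 alone and 0.24 with the covariate. That of the megakaryocyte markers was 0.88, 0.46 and 0.26, and that of the muscle markers 0.54, 0.30 and 0.20. Wild-type library 1 was the highest wild-type library in the sums of all these lists, the erythroid and osteoclast lists included. Tnc-/- library 1 was the highest of all in the erythroid, granulocyte, megakaryocyte and B cell sums. The part that the amount of marrow or blood in each dissected joint had in the globin values was not tested.

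**Figure D5:**
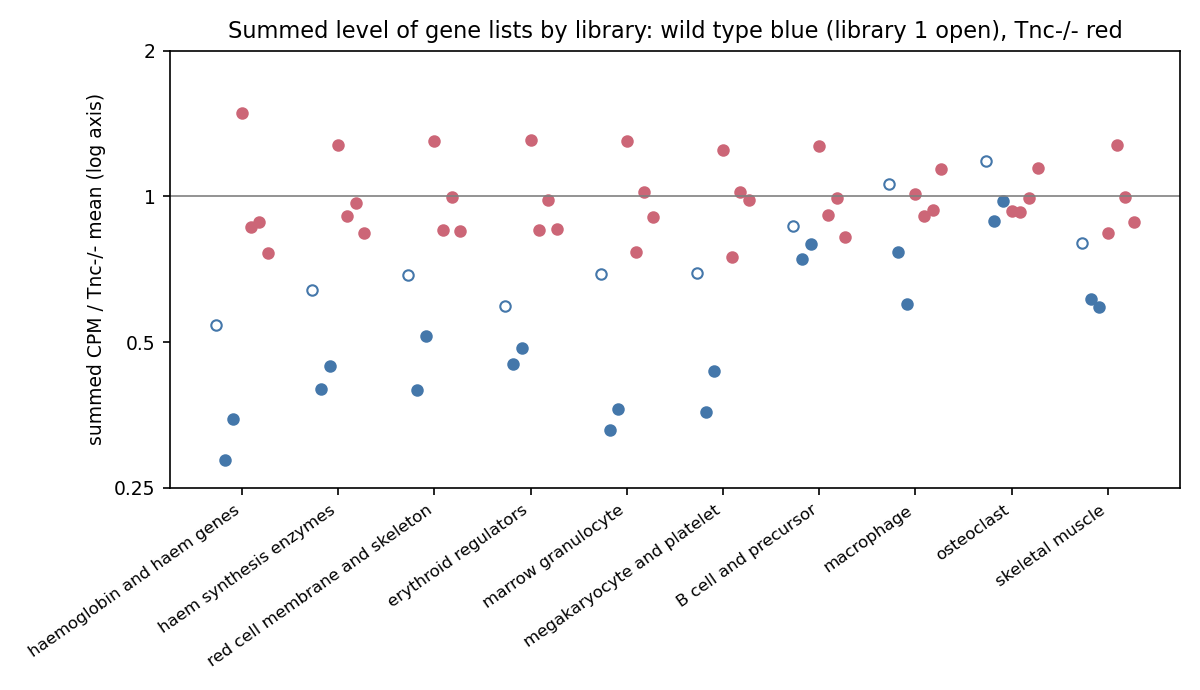
Summed CPM of each gene list divided by its mean in Tnc-/- (vertical axis, log scale) for each library, wild type in blue with library 1 as an open circle and Tnc-/- in red. In the red cell, granulocyte, megakaryocyte and skeletal muscle lists all wild-type libraries lie below all Tnc-/- libraries with library 1 nearest to them. The macrophage, B cell and osteoclast lists overlap.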

How the data were processed

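The authors deposited unnormalized counts of reads for each gene and library. Per the submitters' processing notes, FastQC 0.11.9, HISAT2 2.2.1, HTSeq 2.0.2 and DESeq2 1.38.3 were used with the build GRCm39; strand setting, annotation and the treatment of reads that fit several genes are not given in the sources used here. Per the labels, libraries were made from poly(A) RNA. Rows that name no gene, listed for Tnc-/- alone, held 30.1 to 32.7% of its reads and were left out. Wild-type files had 126 identifiers and Tnc-/- files 87 that the other lacked; the 56854 in common were used. No column was left unmapped (0).

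Tests used edgeR 4.0.16 under R 4.3.3 on the whole table (filterByExpr, TMM, robust quasi-likelihood F test, Benjamini-Hochberg threshold 0.05). CPM are counts per 1e+06 of the TMM-scaled library size, and SE is the log2 fold change over the square root of F. Of 17791 genes tested, 1830 were higher and 3329 lower in Tnc-/-; plain library totals gave 951 and 4541 with a median over all genes of -0.24 on the log2 scale in place of -9.0e-04. In counts simulated for this comparison over 17791 genes, 35% of genes changed 2-fold and 91% of those changed 4-fold were recovered. Within-group correlations of log2(CPM + 1) across genes were 0.815 to 0.963 in wild type and 0.987 to 0.992 in Tnc-/-, and no pair of replicates looked like 1 library deposited again (chi-square per degree of freedom at least 20.3).

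Alternatives were DESeq2 1.42.0, limma 3.58.1 voom, Bonferroni adjustment, 3 other scalings, 2 other filters, leaving out libraries, the background level as a covariate and the replicate number as a block. Exon lengths and overlaps come from GENCODE M21 and promoters from RefSeq, both on GRCm38; 5 of the 9 genes matched a RefSeq promoter. Genes and lists were chosen with earlier results of these data known. Named are the 9 genes, the haem synthesis enzymes (1 listed gene is not reported here), the 2 genes with the smallest p and the most abundant gene of each fixed list, where described, and the 8 most like the 7 tested genes (mean of at least 5 CPM). Hmox1, Slc48a1, Hmox2, Hpx, Bpgm and genes with counts near or at 0 were named after their values were seen.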

Additional observations from a re-analysis of the deposited data

Results flagged for a closer look

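A single Tnc-/- library stood far from the other 3 in 7 of 65 values, each time library 1; chance alone sets about 1 in 20 values apart in this way. The values share a library and several share genes. Hbb-bt was at 1217 CPM in that library against 625 to 722 CPM in the other 3, a gap of 0.836 of the whole range. The 4 adult globins together were at 25077 CPM against 12824 to 14836 CPM, or 2.41% of gene counts against 1.17 to 1.377%. Alad was at 421 CPM against 261 to 285 CPM, Glrx5 at 190.3 CPM against 158 to 161 CPM, Blvrb at 229.7 CPM against 143 to 153 CPM, and Prdx2, a peroxiredoxin abundant in red cells, at 394 CPM against 283 to 297 CPM. Without this library the log2 fold change of Hbb-bs was 1.32 (edgeR, adjusted p = 0.0313), that of Hbb-bt 0.90 (0.0361), and Hba-a1 lost its call at 0.93 (0.0739). Tnc-/- library 1 also held the most gene counts, 28.2 M.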

How the results depend on the processing

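Of the 9 genes, 3 were called higher. DESeq2 called 5 and edgeR with a replicate block also 5, where 12.3 and 4.37% of all tested genes were called higher. Bonferroni adjustment and the background covariate called 0, where 0.101 and 1.07% of all tested genes were called higher. At an unadjusted p under 0.05 were 5 in the main test, as were 7533 of all 17791 tested genes, and 0 with the covariate. Without wild-type libraries 2 and 3 the median log2 fold change of the 7 tested genes was 0.45. Leaving out 1 library gave 0 to 7: 7 without wild-type library 1, 1 without library 2 (Hbb-bs, adjusted p = 0.0412), 0 without library 3, and 2 or 3 without a Tnc-/- library; of all genes 24.3, 5.54 and 3.27% were called higher without wild-type library 1, 2 or 3. Hbb-bs was past the threshold in 14 of 18 alternatives, Hbb-bt in 13 and Hba-a1 in 9; their log2 fold changes ran from 1.03 to 1.98, 0.70 to 1.47 and 0.49 to 1.62, each lowest with the background covariate and highest without wild-type library 1. Over all genes the count of 5159 became 22 with Bonferroni adjustment, 1004 with limma voom, 825 without wild-type libraries 2 and 3, 399 with the background covariate, 1713 with the replicate block and 2229 to 14113 without 1 library. With the background covariate the log2 fold changes of Hba-a2, Car2 and Fech turned to -0.24, -0.062 and -0.030 (edgeR, adjusted p from 0.821 to 0.970). The cause was not tested. That background level was higher in every wild-type library (86.2 to 1455 CPM) than in any Tnc-/- library (32.9 to 41.3 CPM). It is thus confounded in part with genotype, and this fit cannot tell the effects of background and genotype apart. The SE of Hbb-bs was 0.50 with the covariate. The alpha to beta difference was -0.50 without wild-type libraries 2 and 3 and -0.41 to -0.29 without 1 library; that of the Hbb-bt share was -2.03 percentage points without wild-type libraries 2 and 3 and -3.08 to -2.46 without 1 library. Same-numbered libraries of the 2 genotypes did not deviate together (r across genes 0.044, 0.096 and -0.043), so the replicate block pairs a number only. Without wild-type library 1, 2 or 3 the haem synthesis list had 7, 1 and 1 genes called higher, the membrane list 15, 3 and 2, the regulators 8, 3 and 1, and the granulocyte list 12, 2 and 2. Without Tnc-/- library 1, 2, 3 or 4 these lists had 1, 2, 1 and 2, then 3, 6, 3 and 8, then 5, 7, 5 and 6, and 2, 7, 2 and 4. Of all genes 4.82, 5.73, 3.91 and 5.14% were called higher without Tnc-/- library 1, 2, 3 or 4. The megakaryocyte list had 9, 2 and 0 without wild-type library 1, 2 or 3. It had 2, 6, 2 and 3 without Tnc-/- library 1, 2, 3 or 4. The haem synthesis list, with 6 genes called higher by edgeR, had 1 with limma voom and 2 with plain library totals. Depth limits the embryonic globins, at 9 counts or fewer, while the adult globins had at least 1936 counts per library.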

Other observations

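Other genes of the fixed lists were, like Alas2, listed at 0 in all 7 libraries: Abcb6, Acp5, Car15, Rag1, Rag2, Ms4a1 and Hamp. In GENCODE M21 the exons of Abcb6 and Car15 overlap those of other genes at 55.2 and 65.7% of their bases and those of Acp5 and Rag2 at 6.75 and 6.07%, while those of Hamp and Ms4a1 do not overlap any. Acp5, the acid phosphatase of osteoclasts, was at 0 where Ctsk had 592 CPM or more in every wild-type library. These zeros were not read as absence of the RNA, and whether the annotation used for counting set them was not tested.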
